A study of Mus musculus with 116 samples.

Results

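When a chromosome break made by Cas9 is repaired after the end on one side has been cut back, the rejoined chromosome lacks the bases in between. The joins described here are the long prey deletions at the c-Myc break: joins in the original orientation on chromosome 15 whose prey, the sequence joined to the assayed end, began 101 to 100000 bp beyond the break. They were chosen by position alone (chr15:61987405-62087304, plus orientation, mm10), and 77294 reads of the 891855 in the 54 Cas9 libraries met the rule. The series as a whole lists 2482573 reads, and the same Cas9 libraries hold 342527 deletions of 1 to 100 bp and 1182 inverted joins within the same distance. The window starts inside a continuous distribution: 20672 reads lay at 91 to 100 bp, just outside it, and 22734 at 101 to 110 bp. At the far side 10 reads lay between 100001 and 200000 bp.

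The study mapped how broken ends are joined in v-Abl pro-B cells, immature mouse B-lineage cells immortalised by a viral oncogene. All cells carried an Emu-Bcl2 transgene and were nucleofected with Cas9 and a c-Myc guide RNA. The 18 Cas9 groups held 3 replicates each. In 16 groups (48 libraries) the cells were arrested in G1 with 3 µM STI-571, an Abl kinase inhibitor, for 96 h, and in 2 groups they were cycling and not given the inhibitor.

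The arrested genotypes were wild type (WT, which here means Emu-Bcl2 alone; clone A in 2 sets of libraries, and clone B), Ku70-/- (clones A1 and B1), Lig4-/- (clone A1 in 3 sets, clones B1 and C) and Lig4-/- Ku70-/- (clones A1_1 and C1). Lig4-/- cells given Lig4 back (+Lig4; A1 and C) and Lig4-/- Ku70-/- cells given Ku70 back (+Ku70; A1_1 and C1) completed the design. The cycling groups were WT clone A and Lig4-/- clone A1. Each genotype therefore rests on 1 to 3 clones, and clones sharing a first letter were treated as a lineage. Lineage B was sequenced on a NextSeq and the others on a MiSeq, so tests were made within a lineage. Values of different lineages are also set side by side below, without a test. Cells without Ku70 were only arrested, and all cycling cells had Ku70. Where these classes are set side by side, genotype and cell cycle state differ together, and for lineage B the sequencer too. Their effects cannot be told apart. The labels do not say that replicates came from separate cultures, so p-values measure only the spread between these libraries.

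In classical non-homologous end joining the Ku heterodimer, of which Ku70 is a subunit, binds and shields DNA ends, and ligase IV (Lig4) seals them. Without these factors ends can be joined by alternative end joining, which is known for deletions and for microhomology, short identical stretches present at both partners and kept once in the product. Exonucleases that resect an end expose such stretches. Resection is more active in S and G2 than in G1.

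The break and 6 recurrent junctions are shown because they fix the scale of distance, loss and overlap used below. All sequences are the plus strand of mm10, 5′ to 3′, read as the consensus of the deposited reads. The sequence across the break, chr15:61987289-61987318, is cut 3 bases before the capitals, which mark a GGG triplet that has the pattern of a Cas9 PAM. The last bait base is 61987303 and the first prey base is 61987304.
break: cgagcgtcactgatagtaGGGagtaaaaga

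For each junction the bait side, the prey side and the product are given, and capitals mark the bases that both sides share. The first junction, at 104 bp, was the commonest junction at the most frequent prey position of Ku70-null arrested cells; its bait side is chr15:61987250-61987278 and its prey side chr15:61987396-61987424.
bait, 104 bp junction: ctcgaaggaggcGGGGActcggagcagct
prey, 104 bp junction: agcacgctgaaaGGGGAgtggttcaggat
product, 104 bp junction: ctcgaaggaggcGGGGAgtggttcaggat
The second, at 886 bp, belonged to the most frequent prey position of cycling Lig4-/- cells. Its bait side is chr15:61987264-61987293 and its prey side chr15:61988178-61988207.
bait, 886 bp junction: ggactcggagcaGCTGCTagtccgacgagc
prey, 886 bp junction: ttcctcggactcGCTGCTgtcctccgagtc
product, 886 bp junction: ggactcggagcaGCTGCTgtcctccgagtc
The products of the commonest junction at each of the 4 other most widespread prey positions are shown to compare their overlaps. Each uses the same break with a different retreat of the bait.
product, 111 bp junction: ctcgaaggaggcGGttcaggattggg
product, 138 bp junction: cctgggcgtctgCAGGtttccgcaccaa
product, 147 bp junction: ggcgattcctggGCaccaaccagagc
product, 157 bp junction: aaggccgatggcGAgctggataactc

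All but a few long deletions stayed within the gene that was cut. Prey ends of 76856 members (99.4%) lay inside Myc (chr15:61985341-61990361), the transcription factor gene and proto-oncogene targeted by the guide. Another 8 lay in Pvt1, a long noncoding RNA gene, and 430 between the genes. Exon and intron annotation was not used here. Every member removes a run of 23 CA repeats that lies 35 to 80 bp beyond the break.

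Depth set what could be seen. The lists hold 1 row per read for a stated number of raw reads per library (201858, 273198, 310675, 396387 or 600000), and all counts here are reads. Reads carry no molecular identifier and are not independent molecules, so intervals and floors cover counting error only. Arrested Lig4-/- libraries held 74 to 411 junctions in all, against 15888 to 55809 in arrested WT. A floor of 3 reads equals 0.500 to 1.49 per 100000 raw reads. One Lig4-/- library (clone A1 set b, replicate 2) had 0 long deletions among 100 junctions, which allows a share of up to 3.00%, and 53 libraries had at least 1.

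Long deletions were rare in arrested WT cells and abundant in arrested cells without Ku70, whatever the state of Lig4. In the first set of arrested WT clone A the 3 libraries held 12, 13 and 7 long deletions, or 3.03, 3.28 and 1.77 per 100000 raw reads. Ku70-/- clone A1 held 3316, 1810 and 2650, or 837, 457 and 669 per 100000. The lowest Ku70-/- value lay far above the highest WT value, and the groups did not overlap.

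Lineage B gave the same order at higher levels. WT clone B had 6.67, 7.0 and 11.5 long deletions per 100000 raw reads, and Ku70-/- clone B1 had 2236, 1126 and 2356. Each Ku70-/- library again lay above each WT library. On the log2 scale (number plus 0.5, per 100000 raw reads) Ku70-/- exceeded WT by 7.82, with 7.86 between the A clones and 7.78 between the B clones. The two-sided exact permutation test within lineages gave p = 0.005, the smallest it can give, and 0.021 after Benjamini-Hochberg adjustment over the 42 tests made. With each distinct junction counted once the difference was 5.52 (exact permutation p = 0.005). Lineage B lay in 1 sequencing run. In lineage A the Ku70-/- libraries shared no run with these WT libraries, but Ku70-/- A1 replicate 1 (837 per 100000) shared one with replicate 2 of the other WT A set, set b (0.322 per 100000, from 1 read).

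Long deletions were also a larger part of all joins in Ku70-/- cells. They made up 12.9% ± 2.46 (SD, n = 3) of junctions in clone A1 and 27.1% ± 1.03 in B1, against 0.0297% ± 0.00973 in WT A and 0.136% ± 0.0107 in WT B. Neither lineage showed overlap, and the mean difference of 19.9 percentage points had an exact two-sided p = 0.005 (adjusted 0.021). In B1 they were 30.7% ± 1.24 of all deletions.

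**Figure D1:**
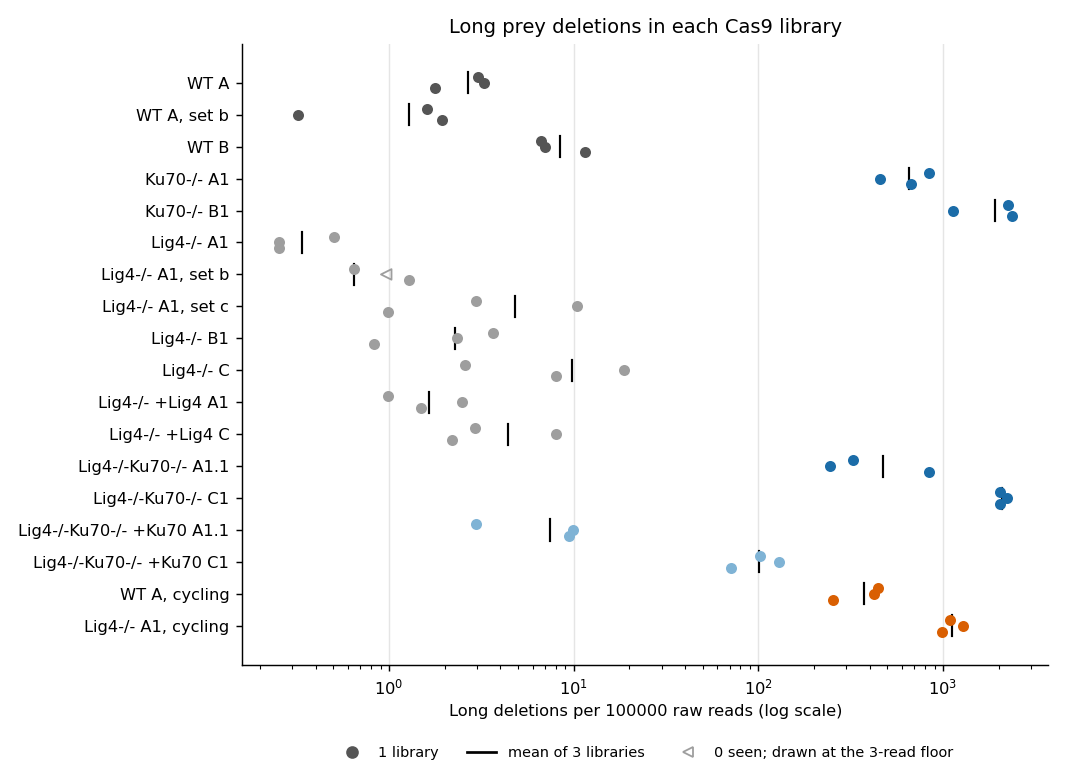
Long deletions per 100000 raw reads (log scale) in each of the 54 Cas9 libraries (points) with the mean of 3 libraries (bars); the open triangle is a library with 0, drawn at its 3-read floor. Ku70-/- and Lig4-/- Ku70-/- libraries lie between 244 and 2356, and every arrested WT and Lig4-/- library at or below 18.7.

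In arrested Lig4-/- cells few junctions of any kind were recovered, and in the sets normalised together long deletions were fewer than in WT per raw read but a larger share of the joins. Lig4-/- clone A1, in the set normalised with WT A, held 2, 1 and 1 long deletions, or 0.505, 0.252 and 0.252 per 100000. Clone B1 held 22, 14 and 5, or 3.67, 2.33 and 0.833. Each of these libraries was below each WT library it was compared with (the first set of clone A, and clone B), but WT A set b, at 1.61, 0.322 and 1.93, overlapped Lig4-/- A1.

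The mean log2 difference from WT was -2.31 (exact two-sided permutation p = 0.005, adjusted 0.021), and -1.47 (exact p = 0.0229) when all arrested sets of clones A and A1 were pooled, an alternative chosen after seeing the data. As a share of junctions the order was the opposite. Long deletions were 0.988% ± 0.331 of junctions in Lig4-/- A1 and 9.37% ± 5.17 in B1 (SD, n = 3), above WT by 5.09 points on average (exact two-sided p = 0.005, adjusted 0.021). The test of the share lost its call without any 1 of the 3 WT B libraries (exact permutation p = 0.1 each, with differences of 5.10, 5.10 and 5.09 points without replicates 1, 2 and 3). The share rests on as few as 1 read per library.

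The 3 sets of Lig4-/- clone A1 differed in level. Set b had 0.644, 0 and 1.29 long deletions per 100000, and set c had 2.97, 10.4 and 0.991, which reaches above WT A (highest 3.28). Lig4-/- clone C had 2.56, 18.7 and 8.05, the highest of the arrested Lig4-/- groups, with a range that overlaps set c.

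Deleting Ku70 in Lig4-/- cells raised the number of long deletions. Lig4-/- Ku70-/- clone A1_1 held 324, 244 and 843 per 100000, and clone C1 held 2024, 2213 and 2039. All 6 libraries were above every Lig4-/- library of their lineage. The mean log2 difference was 7.49 (exact two-sided permutation p = 0.005, adjusted 0.021), and 5.79 over distinct junctions (exact p = 0.005). Within the 2 sequencing runs that held both genotypes in lineage A it was 5.59 and 9.41, and in lineage C no run held both. Long deletions were 9.18% ± 3.03 and 13.3% ± 0.218 of junctions in these clones, against 4.84% ± 2.28 in Lig4-/- A1 set c and 11% ± 5.18 in Lig4-/- C. That difference in share, 3.31 points, did not pass the test (exact p = 0.1, adjusted 0.168).

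Set beside Ku70-/- clone A1 (654 ± 190 per 100000), Lig4-/- Ku70-/- clone A1_1 had 470 ± 325 (SD, n = 3). Their ranges overlapped, and the log2 difference of -0.65 had an exact two-sided p = 0.4. In the 1 run that held both, 1 library each, it was 0.88. With 3 against 3 libraries the smallest possible p is 0.1, so this comparison cannot reach 0.05.

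Giving Ku70 back to Lig4-/- Ku70-/- cells lowered the number of long deletions. Clone A1_1 +Ku70 had 2.97, 9.91 and 9.41 per 100000, and clone C1 +Ku70 had 102, 130 and 71.0. Each library was below every uncomplemented library of its clone, with a mean log2 difference of -5.15 (exact two-sided permutation p = 0.005, adjusted 0.021), and -4.0 over distinct junctions (exact p = 0.005). The share of junctions was 9.37% ± 5.45 in A1_1 +Ku70 and 12.9% ± 1.75 in C1 +Ku70, a mean difference of -0.105 points from the uncomplemented clones (exact p = 0.95). Long deletions per raw read were thus fewer after Ku70 add-back, whereas their share of the joins overlapped that of the uncomplemented cells in both clones.

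Giving Lig4 back to Lig4-/- cells gave another pattern. Clone A1 +Lig4 had 0.991, 2.48 and 1.49 long deletions per 100000, and clone C +Lig4 had 2.93, 8.05 and 2.20. These ranges overlapped those of the Lig4-/- cells, and the log2 difference of -0.94 did not pass the test (exact two-sided p = 0.19, adjusted 0.28). Its direction turned to 0.54 (exact permutation p = 0.445) when the first set of Lig4-/- A1 served as the control in lineage A. As a share of junctions long deletions fell to 0.0297% ± 0.00881 and 0.0278% ± 0.0219 (SD, n = 3), within the range of arrested WT libraries (0.00363% to 0.143%). All 6 libraries were below every Lig4-/- library they were compared with (A1 set c, and C), by 7.89 points on average (exact p = 0.005, adjusted 0.021). The Lig4-/- library with 0 long deletions belongs to A1 set b, which was not in that comparison. The +Lig4 libraries shared no sequencing run with the Lig4-/- libraries compared. In lineage A they did share 2 runs with the first Lig4-/- A1 set, and within these, in values set side by side after seeing the data, +Lig4 minus Lig4-/- was -1.06 and -0.761 points in share but 1.91 and 2.20 in log2 number. In lineage C no run held both, so add-back and run cannot be told apart there.

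Cycling cells had many long deletions even with Ku70 and Lig4 intact. Cycling WT clone A held 446, 420 and 254 per 100000, against 1.61, 0.322 and 1.93 in the arrested set b of the same clone. Cycling Lig4-/- clone A1 held 1097, 1276 and 992, against 0.644, 0 and 1.29 when arrested. Each cycling library exceeded each arrested one, by 8.22 (WT) and 10.93 (Lig4-/-) on the log2 scale, and by 6.87 and 9.27 over distinct junctions. Both exact permutation tests gave p = 0.1, the smallest that 3 against 3 allows (adjusted 0.168).

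The shares followed. Long deletions were 9.88%, 12% and 4.84% of junctions in cycling WT and 34%, 30.4% and 28.5% in cycling Lig4-/- cells. The difference between the 2 cycling effects was 2.71 on the log2 scale (exact two-sided p = 0.62) and 19.6 points in share (p = 0.115), so neither passed. Over distinct junctions the cycling WT share exceeded the arrested one by 22.1 points, against 8.88 by read (exact p = 0.1 both). The cycling libraries shared no sequencing run with the arrested set b. One run held cycling Lig4-/- replicate 3 (992 per 100000) and replicates 1 and 2 of arrested Lig4-/- A1 set c (2.97 and 10.4), a log2 difference of 7.40 and a share higher by 22.4 points, set side by side after seeing the data. For WT no run held both states, and the effects of run and of cycling cannot be told apart.

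The reach of the deletions separated Ku70-null arrested cells from cycling cells. In Ku70-/- B1 the median distance from break to prey was 117, 115 and 117 bp, and in Lig4-/- Ku70-/- C1 it was 117, 115 and 116 bp. In Ku70-/- A1 the medians were 122, 116.5 and 123.5 bp, and in A1_1 they were 122, 121 and 117 bp. Since the window opens at 101 bp, these deletions crowd its near edge.

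In cycling WT cells the medians were 402, 422 and 351 bp, and in cycling Lig4-/- cells 691, 703 and 698 bp. None of the 6 cycling medians came within the range of the 12 Ku70-null medians (115 to 123.5 bp). Long reach was not confined to cycling cells. Arrested Lig4-/- clone C had medians of 340, 389 and 280.5 bp, over 7, 51 and 22 reads. Clone B1 had 180, 201 and 259 bp (22, 14 and 5 reads), and clone A1 set c had 127, 442 and 108 bp (6, 21 and 2 reads). Reads within 200 bp made up 98.0% of long deletions in Ku70-/- B1 and 97.7% in Ku70-/- A1, but 20.7% in cycling WT and 13.3% in cycling Lig4-/- cells.

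Compared with the arrested WT sets normalised with them the Ku70-/- deletions were shorter. WT A had medians of 181.5, 179 and 146 bp and WT B 197.5, 302 and 241 bp, all longer than every Ku70-/- median. WT A set b, over 5, 1 and 6 reads, had medians of 117, 694 and 240.5 bp, and the first of these lies within the Ku70-/- range. The difference in log10 of the median was -0.232 (exact two-sided permutation p = 0.005, adjusted 0.021). Lig4-/- Ku70-/- cells differed from Lig4-/- cells by -0.377 (p = 0.005, adjusted 0.021, exact permutation), with 1 Lig4-/- A1 set c library left out because it held fewer than 5 long deletions. With the replicate number as a block the latter has 5 pairs and an exact p = 0.0625, and counted over distinct junctions it was -0.415 with p = 0.1. Cycling WT exceeded arrested WT set b by 0.367, over 2 arrested libraries with at least 5 reads (exact p = 0.1, the smallest possible).

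The density of reads fell with distance at very different rates. In Ku70-/- B1 there were 18672 ± 6651 reads per 100000 raw reads per kb at 101 to 200 bp, 120 ± 41.7 at 201 to 500 bp and 5.56 ± 1.58 at 501 to 1000 bp (SD, n = 3). In cycling Lig4-/- cells the same bins held 1496 ± 310, 885 ± 51.1 and 855 ± 141. The density in cycling Lig4-/- cells was thus nearly level from 201 to 1000 bp, and it then dropped to 191 ± 15.4 at 1001 to 2000 bp, 25.6 ± 7.08 at 2001 to 5000 bp and 1.93 ± 0.170 at 5001 to 10000 bp. Cycling WT cells fell earlier, from 771 ± 119 to 446 ± 114 and 201 ± 69.9 over the first 3 bins.

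Ku70-null cells had the higher density near the break and cycling cells the higher density beyond it. At 501 to 1000 bp Lig4-/- Ku70-/- C1 had 5.61 ± 1.84, close to the 5.56 of Ku70-/- B1 and under WT cycling. Arrested WT B had 30.6 ± 12.7, 12.4 ± 5.28 and 2.22 ± 0.839 in the first 3 bins, a shallower decline than that of the Ku70-null cells.

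**Figure D2:**
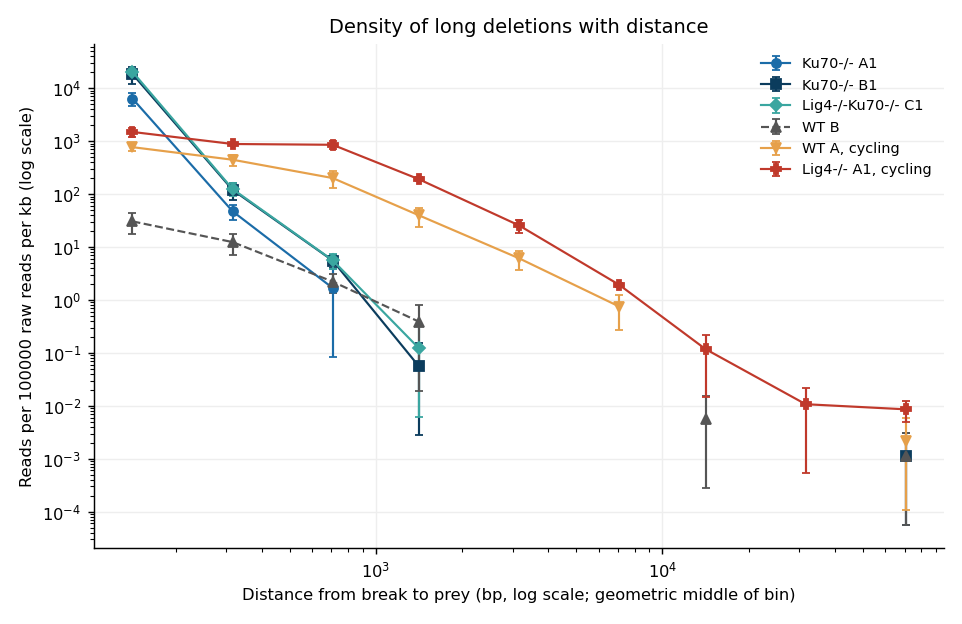
Mean number of long deletions per 100000 raw reads per kb (log scale) against distance from the break (log scale), for 3 libraries a group; error bars are the SD (lower bars stop at a twentieth of the mean), and empty bins are left blank. The 3 Ku70-null curves shown start between 6389 and 20518 at 101 to 200 bp and lie under 6 at 501 to 1000 bp, where the cycling Lig4-/- curve is at 855.

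Beyond 1000 bp nearly all members came from cycling cells. Cycling Lig4-/- cells had 2602 such reads of 10455 and cycling WT cells 577 of 3481. Ku70-/- B1 had 2 of 34312 and Ku70-/- A1 had 0 of 7776. Arrested cells with Ku70 had few long deletions in all. Beyond 1000 bp lay 7 of 80 in Lig4-/- C, 4 of 29 in Lig4-/- A1 set c and 1 of 41 in Lig4-/- B1. In WT B it was 9 of 151, and in the first WT A set 0 of 32. Beyond 10000 bp there were 18 in cycling Lig4-/- and 1 in cycling WT cells, 2 in arrested WT B (14011 and 51497 bp, of 151 reads), 1 in A1 +Lig4 (52233 bp) and 1 in Ku70-/- B1. The last of these was the farthest member, at 95491 bp. One junction at 90989 bp, with 20 bases lost from the bait and a 2 bp overlap, was seen once in each of 2 cycling Lig4-/- replicates.

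Within the Ku70-null libraries the decline was not smooth. Between the windows 187 to 196 bp and 197 to 206 bp, the number of distinct junctions (a distinct junction is a combination of prey position, bait end and overlap) fell from 221 to 29 in Ku70-/- B1 and from 50 to 9 in Ku70-/- A1. In Lig4-/- Ku70-/- cells it fell from 152 to 21 in C1 and from 18 to 1 in A1_1. The count was lower beyond the step in each of the 12 libraries. In cycling cells the counts were 34 and 34 (Lig4-/-) and 21 and 27 (WT). These windows were chosen after the values were seen, as those with the steepest fall, the last position before the step being 61987500. A part of read length or of the authors' filtering in the step was not tested.

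The bait end, on the other side of the break, had retreated far in the same Ku70-null cells. The bait starts 109 bp before the break, so a loss larger than this cannot be observed; the largest seen was 87 bp. Median loss was 65, 65 and 66 bp in Ku70-/- A1 and 69, 65 and 66 bp in B1. It was 63, 65 and 64 bp in Lig4-/- Ku70-/- A1_1 and 65, 59 and 60 bp in C1. A Ku70-null long deletion therefore typically removed sequence on both sides of the break.

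Cycling cells kept most of the bait, with median losses of 16, 14 and 18 bp in WT and 17, 17 and 20 bp in Lig4-/- cells. In arrested WT B the medians were 11, 10 and 9 bp. The cycling and WT B libraries lay below every Ku70-null library (lowest 59 bp). Arrested WT A had medians of 31, 6 and 3 bp, and its set b 34, 64 (1 read) and 9 bp. Arrested Lig4-/- clone C had 24, 12 and 17.5 bp, clone B1 54.5, 23 and 21 bp, and clone A1 set c 56, 18 and 28 bp. Losses of 20 bp or more were found in 99.4% ± 0.179 of long deletions in Ku70-/- B1, 41.7% ± 7.05 in cycling WT, 47.2% ± 3.47 in cycling Lig4-/- and 31.9% ± 4.12 in WT B (SD, n = 3).

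The share with at least 5 bp lost was 100% in each Ku70-/- A1 library, against 91.7%, 53.8% and 14.3% in WT A (80%, 100% over 1 read, and 83.3% in set b). In lineage B it was 100.0% ± 0.00490 for Ku70-/- and 72.6% ± 5.19 for WT. Genotypes were separate in both lineages, and the mean difference was 37.0 points (exact two-sided permutation p = 0.005, adjusted 0.021). Between Lig4-/- Ku70-/- and Lig4-/- cells it was 13.1 points (exact p = 0.02), which did not pass after adjustment (0.0764).

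After add-back of Ku70 the remaining long deletions of clone C1 had median losses of 63, 64 and 66 bp, overlapping those of the uncomplemented clone, and the difference in the share with at least 5 bp lost was -0.682 points over both clones (exact p = 1). The A1_1 +Ku70 libraries held only 6, 20 and 19 reads and had medians of 65, 9 and 42 bp.

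**Figure D3:**
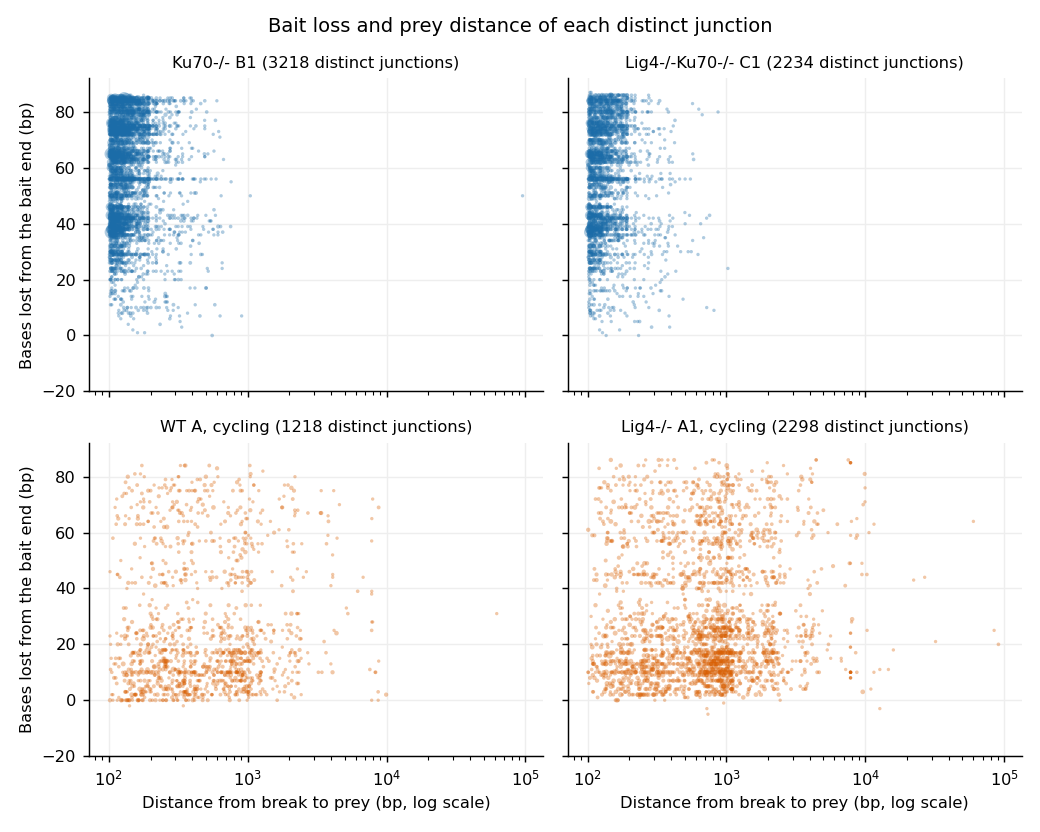
Bases lost from the bait end against distance from break to prey (log scale) for each distinct junction of 4 groups, 3 libraries a group; larger points have more reads. Ku70-null junctions fill the upper left, with losses mostly above 20 bp and distances under 200 bp, and cycling junctions lie mostly under 30 bp of loss over distances to several kb.

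Loss of the bait and distance to the prey varied together only weakly in 3 of the larger groups. Over the distinct junctions of a group, Spearman's rho was 0.0706 in Ku70-/- B1 (3218 junctions), 0.110 in Ku70-/- A1 (993) and 0.0825 in cycling Lig4-/- cells (2298). These correlations are across junctions that share a break and libraries, and are given as a description. Binned by distance, median loss in cycling Lig4-/- cells was 16 bp at 101 to 200 bp, 18 bp at 501 to 1000 bp and 25 bp at 2001 to 5000 bp. In Ku70-/- B1 it went the other way, from 66 bp at 101 to 200 bp to 39 bp over the 50 reads at 501 to 1000 bp.

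Microhomology, counted as an overlap of 2 bp or more between the bait and prey alignments on the read, was present in 62.6%, 64.3% and 57.9% of long deletions in Ku70-/- A1 and in 55.7%, 53.9% and 54.6% in B1. Arrested WT had 58.3%, 15.4% and 14.3% in clone A (7 to 13 reads a library), 60%, 0% and 50% in its set b (1 to 6 reads) and 40%, 61.9% and 36.2% in clone B. Lineage B values overlapped, and the 20.5 point mean difference did not pass (exact two-sided permutation p = 0.07, adjusted 0.168).

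That comparison depends on how junctions are counted. Without WT A replicate 1 the difference was 27.7 points (exact permutation p = 0.02), and without WT B replicate 2 it was 24.4 (p = 0.01). With each distinct junction counted once per library it turned to -10.7 points (exact p = 0.185). Reads per distinct junction differed between the groups: 13.4% to 27.8% of Ku70-/- reads were distinct junctions, against 69.0% to 100% in arrested WT.

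Lig4-/- Ku70-/- cells had microhomology in 60.3% ± 0.377 (A1_1) and 52.9% ± 1.24 (C1) of long deletions (SD, n = 3). Lig4-/- clone C had 57.1%, 72.5% and 63.6%. Clone A1 set c had 33.3% (6 reads) and 71.4% (21 reads), its replicate 3 being left out with 2 reads. Clone B1, not part of this comparison, had 72.7%, 64.3% and 60%. The difference between Lig4-/- Ku70-/- cells and Lig4-/- cells of their lineages (A1 set c, and C) was -1.80 points (exact permutation p = 0.87). In lineage C alone the double-null libraries were all lower, by 11.5 points. In lineage A they were higher by 7.91 on average but lay between the set c values.

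Cycling cells had microhomology in 61.0%, 69.6% and 64.4% (WT) and 71.9%, 73.5% and 71.4% (Lig4-/-) of long deletions. All 3 cycling Lig4-/- libraries were above all 3 cycling WT libraries, a difference that was not tested. Overlaps of 4 bp or more made up 23.2% ± 0.511 in cycling Lig4-/-, 18.1% ± 2.68 in cycling WT and 14.6% ± 0.696 in Ku70-/- B1. Blunt joins, with neither overlap nor insertion, were 22.2% ± 1.84 in Ku70-/- B1 and 25.7% ± 0.282 in Lig4-/- Ku70-/- C1 but 7.56% ± 2.92 in cycling WT and 5.12% ± 1.44 in cycling Lig4-/- cells. The Ku70-null distributions thus reach further into blunt joins, and the cycling ones into longer overlaps. At exactly 4 bp, however, cycling WT (8.15%, 7.66% and 11.3%) overlapped Ku70-/- B1 (10.3%, 11.5% and 9.90%). Of the 1111 overlaps of 6 bp or more that were checked, only 56.4% were found in the consensus sequence, so the longest overlaps are uncertain.

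**Figure D4:**
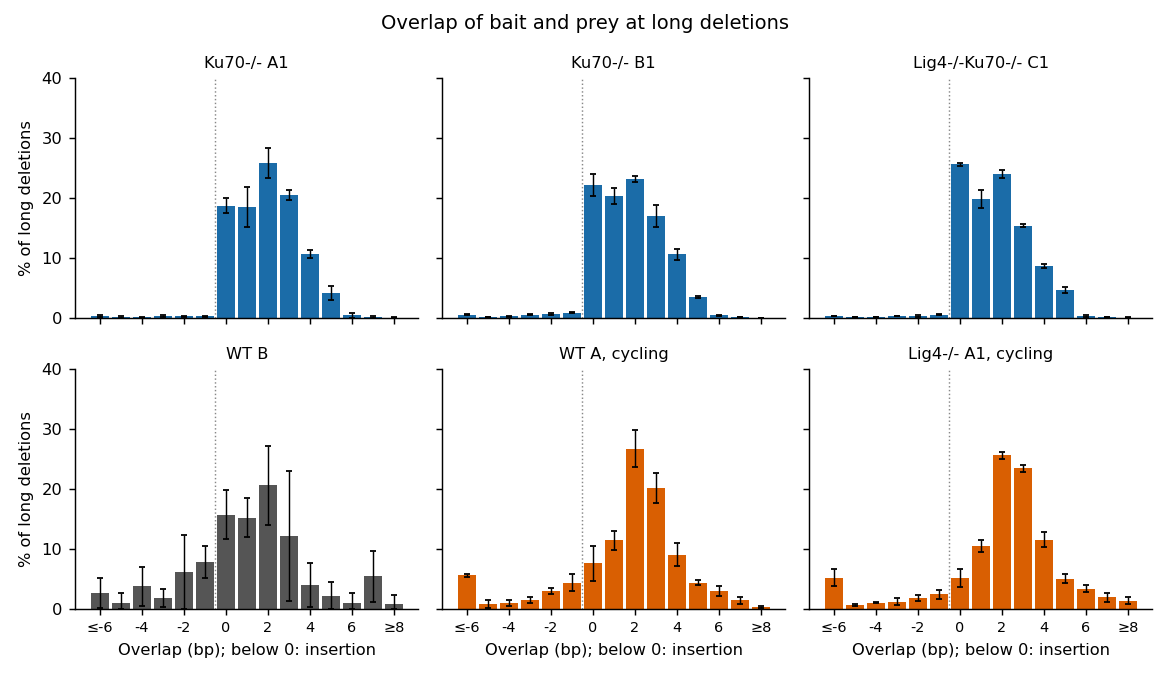
Percent of long deletions at each overlap of bait and prey in bp (below 0, inserted bases; the outer bins are open-ended), as the mean of 3 libraries with SD error bars (cut at 0). Blunt joins at 0 are 22.2% in Ku70-/- B1 and 5.12% in cycling Lig4-/- cells.

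Counting each distinct junction once widened the gap between these classes. Distinct junctions with microhomology were 19.4% ± 1.19 in Ku70-/- B1 and 32.8% ± 2.25 in A1, against 59.3% ± 4.42 in cycling WT and 65.1% ± 0.196 in cycling Lig4-/- cells. They were 40.4% ± 8.39 in Lig4-/- Ku70-/- A1_1, 22.3% ± 0.753 in C1 and 47.2% ± 5.00 in C1 +Ku70. C1 +Ku70 (110 to 179 distinct junctions a library) and A1_1 (157 to 481) held fewer of them than Ku70-/- B1 (1339 to 1904). A part of depth in the size of the gap was not tested. As a yardstick, 6.94% of the 6355 products that the sequence allows at 101 to 200 bp, with 0 to 85 bp of bait loss, would hold 2 bp or more of homology. In that distance range the distinct junctions with it were 17.0% of 2064 in Ku70-/- B1, 27.2% of 837 in Ku70-/- A1 and 17.9% of 1703 in Lig4-/- Ku70-/- C1. In A1_1 they were 28.4% of 570, and in C1 +Ku70 39.9% of 321. They were 64.2% of 162 in cycling WT and 71.9% of 196 in cycling Lig4-/- cells. Each of these shares lay above the yardstick, and the cycling ones lay farthest above it.

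Long deletions had a higher microhomology share than the short deletions of the same library in each library compared, but the difference did not pass after adjustment. In Ku70-/- cells the shares were 58.2% ± 4.34 (long) and 33% ± 2.45 (1 to 100 bp; SD, n = 6). In Lig4-/- Ku70-/- cells they were 56.6% ± 4.11 and 32.4% ± 2.87, and in WT 37.7% ± 20.3 and 16.9% ± 11.6. The long share was higher in 6 of 6 libraries of each genotype (for WT, clone B and the first set of clone A), by 25.2, 24.3 and 20.8 points. WT A set b was not in the test and differed by 52.5, -12.4 (1 read) and 43.2 points. The Lig4-/-, +Lig4 and +Ku70 groups were not tested either. In Lig4-/- C the long share differed by 31.1, 16.6 and -4.78 points. Each exact two-sided sign-flip test gave p = 0.03125, the smallest possible with 6 libraries, and 0.0938 after adjustment. Without any 1 library the smallest possible p is 0.0625.

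Counted by read, inserted bases at the junction made up a smaller share of long deletions without Ku70 than in cycling cells, a difference that was not tested. Insertions marked 1.33%, 1.05% and 1.06% of long deletions in Ku70-/- A1, 2.67%, 3.12% and 2.46% in B1, and 1.5%, 1.49% and 1.72% in Lig4-/- Ku70-/- C1. Cycling WT had 18.8%, 13.8% and 15.5%, and cycling Lig4-/- 10.4%, 13.5% and 12.6%. No cycling library came near the highest Ku70-null library (3.12%). Arrested WT B had 35%, 9.52% and 24.6%, over 40 to 69 reads a library.

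Insertion lengths of the classes overlapped. Of 1277 insertions in cycling Lig4-/- cells 235 exceeded 20 bp, with a median of 4 bp and a maximum of 335 bp, and of 562 in cycling WT 84 did, with a median of 3 bp and a maximum of 246 bp. In Ku70-/- cells 17 of 91 (A1) and 33 of 917 (B1) exceeded 20 bp, with medians of 3 and 2 bp. In Lig4-/- Ku70-/- cells 5 of 22 (A1_1) and 36 of 269 (C1) did, with a median of 2 bp in both and maxima of 263 and 286 bp. Over distinct junctions the insertion share was 15.9% ± 1.29 in Ku70-/- B1, 5.67% ± 2.61 in A1, 19.8% ± 3.36 in cycling WT and 17.7% ± 1.81 in cycling Lig4-/- cells. Counted so, the Ku70-/- B1 libraries (14.8% to 17.3%) overlapped those of cycling Lig4-/- cells (16.3% to 19.8%). They lay just below those of cycling WT cells (17.4% to 23.6%).

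The same few bases were used again and again without Ku70. The prey position 104 bp from the break (61987408) was the most frequent in both Ku70-/- clones and in both Lig4-/- Ku70-/- clones. It took 12.3%, 16.0% and 9.66% of long deletions in Ku70-/- A1, 13.1%, 12.7% and 13.0% in B1, 14.7%, 10.8% and 16.8% in A1_1 and 15.7%, 18.1% and 17.2% in C1. In C1 +Ku70 it took 14.3%, 14.9% and 12.4%. It was all but missing in cycling cells, with 1 read in cycling WT and 4 in cycling Lig4-/- cells.

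This position was reached from many bait ends: 80 combinations of bait end and overlap led to it in Ku70-/- B1 and 76 in C1. The commonest is the GGGGA junction printed above, with 37 bp lost from the bait and a 5 bp overlap, which held 2353 reads in 19 libraries of 8 groups. It accounted for 3.70% of all long deletions in Ku70-/- A1, 3.33% in B1, 4.74% in A1_1 and 4.36% in C1. No read of it was seen in cycling cells.

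The 5 prey positions found in the most libraries were 111 and 147 bp (25 libraries each), 138 and 157 bp (24 each) and 104 bp (23). The positions at 131 and 114 bp were also in 23 libraries, and the tie was settled by the number per 100000 raw reads summed over libraries. At 111 bp the shares in Ku70-/- B1 were 6.72%, 7.19% and 6.67%, and in cycling Lig4-/- cells 0.235%, 0.126% and 0.0973%. At 157 bp they were 1.21%, 1.23% and 1.30% in Ku70-/- B1 and 0.763%, 0.782% and 0.259% in cycling Lig4-/- cells. These shares are of all long deletions, and few of those in cycling cells lay within 200 bp. The reads at 157 bp were 26, 31 and 8 in cycling Lig4-/- libraries, which together held 1394 reads at 101 to 200 bp. In Ku70-/- B1 they were 162, 83 and 184, with 33610 in that range. Per read within 200 bp the order at 157 bp was thus reversed. The same held at 138 and 147 bp, but not at 111 bp. The commonest junctions at 111, 147 and 157 bp share 2 bp (GG, GC and GA) with 40, 75 and 84 bp of bait lost, and that at 138 bp shares CAGG with 66 bp lost, as in the printed products. All 4 took a larger share of long deletions in Ku70-/- A1, Ku70-/- B1 and Lig4-/- Ku70-/- C1 than in either cycling group. In A1_1 that at 147 bp took 0.0702% (2 reads), against 0.0287% in cycling Lig4-/- and 0.0862% in cycling WT cells (3 reads each). The 4 junctions were picked on the reads of all groups together, most of which came from Ku70-null cells. They also lie within 200 bp, where few cycling reads lay. Their larger share without Ku70 follows in part from that choice and is a description only.

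Cycling cells spread over many positions. Their most frequent ones took 0.995% (Lig4-/-, 886 bp) and 1.01% (WT, 177 bp) of long deletions. At 886 bp the Lig4-/- replicates had 1.12%, 1.01% and 0.843%. At 177 bp the WT replicates had 0.505%, 0.613% and 2.53%, so that position rests on replicate 3, without which it took 0.557%; the leading positions of replicates 1 and 2 were 318 bp (1.30%) and 168 bp (1.45%). At 886 bp, 97 of the 104 cycling Lig4-/- reads were the GCTGCT junction printed above, with 22 bp of bait lost and a 6 bp overlap. That junction was found in all 6 cycling libraries (97 reads in Lig4-/- and 15 in WT) and in no arrested one. Arrested groups held few reads at 501 to 1000 bp, at most 50 (Ku70-/- B1), against 3985 in cycling Lig4-/- and 937 in cycling WT cells. Its absence from arrested libraries therefore says little.

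The pattern over single bases was shared by the Ku70-null clones. Over the 100 positions from 101 to 200 bp, the mean profiles of the 4 Ku70-null groups correlated with Pearson's r of 0.960 to 0.983. Their correlation with cycling groups was between -0.129 and -0.0208, and the 2 cycling groups correlated at 0.503. By rank (Spearman's rho) these were 0.0938 to 0.169, and 0.551. Between replicates the lowest r was 0.827 to 0.990 in the Ku70-null groups, 0.212 in cycling WT and 0.468 in cycling Lig4-/- cells. The correlations are across positions of 1 sequence, which all groups share, and are a description.

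**Figure D5:**
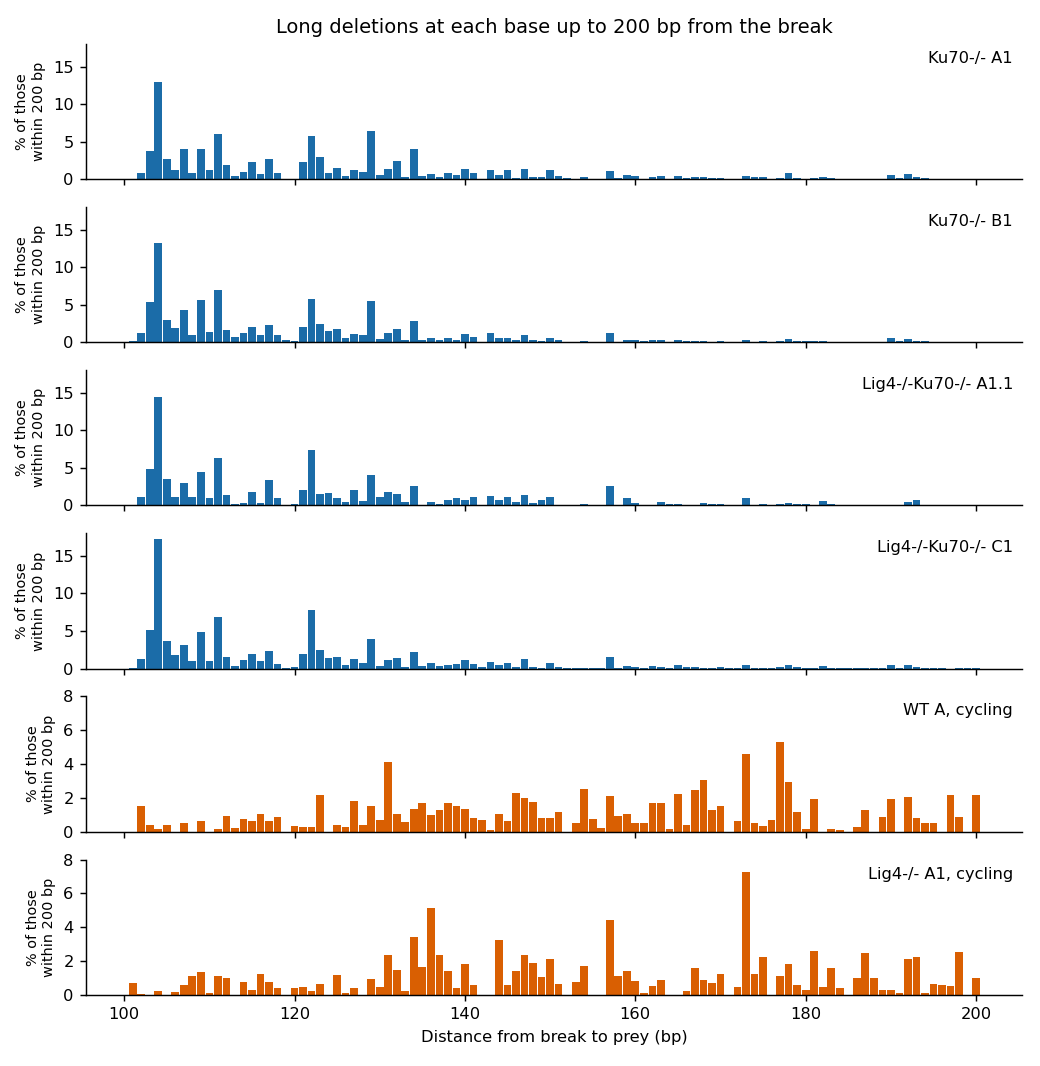
Percent of the long deletions within 200 bp that lie at each base, as the mean of 3 libraries, against distance from the break in bp; the cycling panels have a smaller vertical scale. The 4 Ku70-null panels share their peaks, the tallest at 104 bp, and the cycling panels show none there.

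Recurrent junctions, meaning distinct junctions seen in at least 2 replicates, were also compared between groups. Of 322 in Ku70-/- A1, 300 were also recurrent in B1, which is 93.2% of the A1 list and 24.7% of the 1215 in B1. The A1 list shared 284 with the 884 of Lig4-/- Ku70-/- C1 (88.2% and 32.1%). With the 348 of cycling Lig4-/- cells it shared 9 (2.80% and 2.59%). These lists were not limited to a shared range of distance. Beyond 200 bp lay 85.4% to 87.8% of distinct junctions in the cycling Lig4-/- libraries but 4.30% to 6.55% in Ku70-/- A1. A part of distance in the low overlap was not tested. The 2 cycling groups shared 42 of 91 (46.2%) and 348 (12.1%). Junctions seen in all 3 replicates held 76.9% of reads in Ku70-/- B1 (34312 reads) and 77.7% in Lig4-/- Ku70-/- C1 (17147). They held 63.7% in Ku70-/- A1 (7776), 47.5% in Lig4-/- Ku70-/- A1_1 (2848) and 25.8% in C1 +Ku70 (829), groups with fewer reads. In cycling cells they held 16.2% (Lig4-/-, 10455 reads) and 5.26% (WT, 3481). A part of read number in these shares was not tested.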

How the data were processed

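DNA joined to the c-Myc break was sequenced in 54 Cas9 libraries. Libraries followed a published linear-amplification protocol without its enzyme blocking step, per the labels. The authors deposited lists of alignment coordinates with 1 row per read, for a stated number of raw reads, and Bowtie2 and mm10 are named in the submitters' processing notes; versions and settings are not given in the sources used here. Distance was the prey position minus 61987304, bait loss 61987303 minus the bait end, and overlap the shared stretch of both alignments on the read (below 0, an insertion). The overlap was found in the consensus sequence for 99.2% of 73674 joins checked, but for 56.4% of the 1111 with 6 bp or more. No read name was repeated.

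Each library gave 1 value per measure. Group means were compared by two-sided exact permutation within lineages, averaged over lineages, with Benjamini-Hochberg adjustment over 42 tests; 14 passed 0.05 before adjustment and 10 after. The script was tested on simulated data. Libraries under 5 members were left out of tests of distance, microhomology and bait loss. Positions were named if among the 5 found in the most libraries or the most frequent of a group. The members and lists were chosen with earlier results of these data known. Replicate numbers were checked as pairs: 22 of 45 same-numbered pairs correlated above 0.1, and all pairs did in 3 of 15 comparisons, so no pairing was assumed. Sequencing runs (16, from read names; 1 per library) were the batches examined. Tests of how results depend on counting, thresholds and single libraries are given after the report. Python 3.11.15, pandas 2.3.3, numpy 2.4.6, scipy 1.17.1 and matplotlib 3.10.9 were used.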

Additional observations from a re-analysis of the deposited data

How the results depend on the processing

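Differences are log2 (abundance), log10 bp (distance) or percentage points, and each exact p is two-sided. With each distinct junction counted once, these values changed direction or call: abundance of Lig4-/- Ku70-/- against Ku70-/- 0.0296 (exact p = 1), its microhomology 7.67 (p = 0.4), microhomology of Ku70-/- against WT -10.7 (p = 0.185), of +Ku70 26.7 (p = 0.005), distance of +Ku70 -0.00381 (p = 0.685), and for Lig4-/- Ku70-/- against Lig4-/- distance -0.415 (p = 0.1) and bait loss 16.4 (p = 0.1). With the first Lig4-/- A1 set as control, +Lig4 abundance was 0.54 (exact p = 0.445). Bait loss of at least 1 bp gave 1.18 (exact p = 0.4) for Lig4-/- Ku70-/- against Lig4-/- and 0.00603 (p = 1) for +Ku70, and of at least 20 bp -15.0 (p = 0.7) for cycling against arrested WT. An overlap of at least 1 bp gave microhomology of 27.3 (exact p = 0.015) for Ku70-/- against WT, 1.84 (p = 0.89) for Lig4-/- Ku70-/- against Lig4-/- and 5.81 (p = 0.115) for +Ku70. At 4 bp the last 2 were -16.1 (exact p = 0.005) and 5.00 (p = 0.435), and with insertions left out +Ku70 was 0.836 (p = 0.975). The mean of log10 distance gave 0.00119 (exact p = 0.8) for Lig4-/- Ku70-/- against Ku70-/-. Beyond 200 bp the shares differed by -4.42 (Lig4-/- Ku70-/- against Lig4-/-), 2.16 (Lig4-/- against WT), 1.96 (+Ku70) and -4.65 (+Lig4), each with exact p = 0.05. The causes were not tested.

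A pool of all arrested sets of clones A and A1 was chosen after seeing the data and lets cycling comparisons reach smaller p-values because it has more libraries. It gave abundance differences of 7.64 (WT, exact p = 0.0119) and 10.18 (Lig4-/-, p = 0.00455), shares of 8.87 (p = 0.0119) and 28.2 (p = 0.00455), a difference of cycling shares of 19.3 (p = 0.0307), a WT distance of 0.367 (p = 0.0179), and for Lig4-/- against WT a bait loss of 25.4 (p = 0.0429) and distance of 0.0438 (p = 0.676). With the replicate number as a block, Lig4-/- Ku70-/- against Lig4-/- lost its calls of distance (-0.374, exact p = 0.0625) and bait loss (13.0, p = 0.125); the replicate block changed no other call. A pseudocount of 1, a limit of 20 kb and homology recomputed from sequence (also added after seeing the data) changed none.

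Leaving out 1 library at a time gave these ranges where a direction or call changed. Lig4-/- Ku70-/- against Lig4-/-: bait loss 12.8 to 13.3, microhomology -3.62 to 0.230, share 1.83 to 4.23. +Ku70 against Lig4-/- Ku70-/-: bait loss -1.10 to 0.151, distance -0.00335 to 0.0878, microhomology -6.09 to 9.48, share -1.67 to 0.823. Lig4-/- Ku70-/- against Ku70-/-: distance -0.00990 to 0.00312, microhomology -3.15 to 0.0642. Microhomology of Ku70-/- against WT ran from 16.7 to 27.7, and the share of Lig4-/- against WT from 3.89 to 6.46. Long minus short microhomology ran from 24.5 to 25.7 (Ku70-/-), 23.7 to 24.7 (Lig4-/- Ku70-/-) and 14.5 to 23.4 (WT), with 5 libraries too few for a p under 0.0625. The abundance of Ku70-/- against WT stayed between 7.69 and 7.99 with exact p = 0.005. Shapes rest on few reads in arrested Lig4-/- (0 to 51 a library) and +Lig4 (2 to 22) libraries.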

Other observations

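For 9 libraries of lineage A the authors also deposited junction lists from a LAM-HTGTS pipeline. All of its long deletions were among those described above. In Ku70-/- A1 it kept 378, 436 and 404 reads, or 11.4%, 24.1% and 15.2% of the longer lists, which had 465, 504 and 495 distinct junctions. In WT A it kept 10, 12 and 6 of 12, 13 and 7 reads. In those shorter lists long deletions were 9.46%, 9.88% and 8.57% of junctions in Ku70-/- A1 and 1.17%, 1.31% and 1.08% in WT A, and Ku70-/- microhomology was 38.1%, 39.4% and 36.9%, between the values by read and by distinct junction given above.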
